A study of Mus musculus with 8 samples.

Results

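Ezrin, radixin and moesin, together the ERM family, and 7 genes whose products work with them at the actin-filled processes of the cell surface were followed in retinal pigment epithelium (RPE) eyecups of mice lacking Bbs8. The 10 genes were taken by symbol: Ezr, Rdx and Msn, their relative Nf2, the scaffolds Slc9a3r1 and Slc9a3r2, the membrane protein gene Podxl, and the actin-binding genes Eps8, Espn and Myo7a. They are 10 of 31053 genes in the count tables. All 10 passed the filter on low counts, as did 13813 genes in total.

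QuantSeq 3′ mRNA sequencing, which counts 1 tag region near the poly-A end of each transcript, was performed on 8 libraries at postnatal day 11. Of these, 4 came from wild type mice (Bbs8+/+) and 4 from littermates homozygous for the Bbs8 knockout (Bbs8-/-). All mice were of the C57/Bl6 strain and untreated, and the study's methods count each animal as a biological replicate. Levels are given as CPM, tag counts scaled to the TMM-adjusted size of each library. Every library held both the female transcript Xist (641 to 747 CPM in Bbs8+/+ and 571 to 626 CPM in Bbs8-/-) and transcripts of 4 Y-linked genes (59.1 to 65.0 and 108 to 120 CPM in sum), so that no library can be taken as RNA of a single mouse. Here n counts libraries, and p-values measure the spread between them. Whether libraries of a genotype shared animals cannot be told from the sources used here. How the knockout allele was made is not given in the sources used here. RNA came from what remained of the eye after cornea, lens, retina and optic nerve had been taken off, so that choroid and other cells of the eyecup were present beside the RPE.

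ERM proteins link the plasma membrane to cortical actin. Their folded, inactive form opens when it binds membrane phosphoinositide and is phosphorylated on a conserved threonine near the C-terminus, after which the N-terminal FERM domain holds membrane proteins and scaffolds while the tail holds F-actin. In the RPE, ezrin is concentrated in the long apical microvilli that wrap the photoreceptor outer segments, and mice without ezrin form short and sparse apical processes. Each gene was tested between genotypes. Sums and shares across genes are descriptions, and no test compared the levels of different genes.

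The 3 ERM genes lie on different chromosomes of the mouse mm10 assembly. Ezr (ENSMUSG00000052397) is on the minus strand of chromosome 17 from 6738041 to 6782784, Rdx (ENSMUSG00000032050) on the plus strand of chromosome 9 from 52047173 to 52088735, and Msn (ENSMUSG00000031207) on the plus strand of the X chromosome from 96096042 to 96168552. The 250 bases before the RefSeq start of each, which differs by some bases from the annotated start above, are printed because Ezr and Rdx were higher in Bbs8-/- while Msn did not pass the test. They are RefSeq sequences of build GRCm38.p6, written 5′ to 3′ on the strand of the gene, at chr17:6782781-6783030, chr9:52046900-52047149 and chrX:96095795-96096044.
Ezr: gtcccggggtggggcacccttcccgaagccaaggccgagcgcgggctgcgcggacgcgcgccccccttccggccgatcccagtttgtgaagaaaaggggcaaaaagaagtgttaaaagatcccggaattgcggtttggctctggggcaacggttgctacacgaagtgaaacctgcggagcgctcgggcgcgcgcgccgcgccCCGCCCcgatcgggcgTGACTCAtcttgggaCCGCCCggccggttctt
Rdx: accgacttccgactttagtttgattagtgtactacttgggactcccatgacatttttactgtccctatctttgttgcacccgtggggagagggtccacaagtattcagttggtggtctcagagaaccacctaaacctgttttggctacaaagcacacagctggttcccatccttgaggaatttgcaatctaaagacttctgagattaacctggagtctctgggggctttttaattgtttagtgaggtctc
Msn: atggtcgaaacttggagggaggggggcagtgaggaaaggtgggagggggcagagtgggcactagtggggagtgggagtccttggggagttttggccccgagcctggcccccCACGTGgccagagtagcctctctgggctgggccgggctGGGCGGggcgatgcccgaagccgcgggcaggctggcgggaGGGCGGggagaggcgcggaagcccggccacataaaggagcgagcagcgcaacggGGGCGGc
Capitals mark every match, on either strand, to 7 short motifs: GGGCGG (GC box), CCAAT (NF-Y core), TGANTCA (AP-1), CACGTG (E-box), CATGTG (M-box core), CATTCC (TEAD core) and TAATCC (OTX core). Counted from the RefSeq start, the Ezr window held GC boxes from -48 to -43 and from -17 to -12, with an AP-1 match, TGACTCA, between them from -32 to -26. The Msn window held 3 GC boxes, from -101 to -96, -61 to -56 and -7 to -2, and an E-box from -139 to -134. None of the 7 motifs matched in the Rdx window, nor in a second Rdx window before an alternative start on chromosome 9 (52047691 to 52047940). None of the matches overlapped another. Among 32851 RefSeq windows of this length, 32.7% held a GC box, 6.75% an AP-1 match, 6.02% the E-box, 33.8% the NF-Y core, 12.3% the M-box core, 12.6% the TEAD core and 6.25% the OTX core. G and C made up 67.2% of the Ezr window, 71.6% of the Msn window and 45.2% of the Rdx window.

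Depth sufficed for the abundant genes among the 10 but was short for Espn. Total gene counts ranged from 1636725 to 2884983, so that 3 counts, taken as the smallest readable level, stood for 1.04 to 1.83 CPM. Floors, and the intervals of shares given further on, cover counting error only, since no molecular identifiers were named, whereas the intervals of log2 fold changes come from the edgeR fit and include the spread between libraries. Ttc8, the gene symbol of Bbs8, fell from 18.6 ± 2.96 to 4.97 ± 3.27 CPM in Bbs8-/- (SD, n = 4 each, log2 fold change -1.95, edgeR FDR 2.75e-06), with no overlap between the genotypes. The tissue label was borne out by its markers: the 12 RPE markers, among them Rpe65, Rlbp1 and Ttr, summed to 17400 to 18500 CPM in Bbs8+/+ and to 18900 to 19300 CPM in Bbs8-/-, although Best1 had at most 10 counts per library and none in Bbs8+/+ replicate 1. Of these markers 7 were higher and 5 lower in Bbs8-/-, and 1, Otx2, passed the threshold, a false discovery rate (FDR) under 0.05 in the edgeR test, upward. Most of the sum was Ttr, at 11000 ± 514 and 11700 ± 61.7 CPM (SD, n = 4 each, edgeR FDR 0.0689), while Rpe65 was lower on average, at 2000 ± 98.5 and 1830 ± 81.7 CPM (edgeR FDR 0.0842). Marker lists of other cells differed between the genotypes as well, where 1.1% of all tested genes passed the threshold upward and 1.14% downward. The lens list summed to 212 to 237 CPM in Bbs8+/+ and 363 to 388 CPM in Bbs8-/-, with 6 of 12 tested genes past the threshold upward. Of these, Cryba4 and Crybb1 reached 1 CPM in all 4 Bbs8-/- libraries but in only some Bbs8+/+ libraries. They would not have passed the filter on low counts without the Bbs8-/- libraries, so that the filter bore on their direction. Macrophage and leukocyte genes summed to 448 to 492 and 526 to 569 CPM (12 of 12 genes higher, where 49.5% of all genes were, 1 of them, Csf1r, past the threshold). Melanocyte genes summed to 13400 to 14000 and 11200 to 11800 CPM, mostly from Dct, which the RPE also makes. Of the 10 genes 8 were lower and 2 higher, and 5 passed the threshold downward. These were Dct, Pmel (2170 and 1830 CPM on average), Mlana (300 and 218 CPM), Ednrb (244 and 181 CPM) and Slc45a2 (94.3 and 61.6 CPM). Sox10, at 130 and 125 CPM, and Kit, at 34.2 and 33.5 CPM, did not pass it. Photoreceptor genes summed to 503 to 552 and 411 to 467 CPM (2 of 12 past the threshold downward). Müller glia genes summed to 2270 to 2410 and 2260 to 2320 CPM (of 10 genes, Gfap past it upward, from 2.62 to 14.4 CPM, and Dkk3 downward, from 198 to 154 CPM), skeletal muscle genes to 1520 to 1610 and 1610 to 1700 CPM (0 of 9), and endothelial genes to 1020 to 1070 and 966 to 1050 CPM (0 of 12). Surface epithelium genes were near the floor, at 16.5 to 23.4 and 1.84 to 4.21 CPM, with Krt14 and Dsg1a at 0 counts in all libraries and 3 of 4 tested genes past the threshold downward. Those 3, Krt6a, Krt13 and Krt15, passed the filter on low counts through the Bbs8+/+ libraries alone, so their direction was fixed by the filter.

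**Figure D1:**
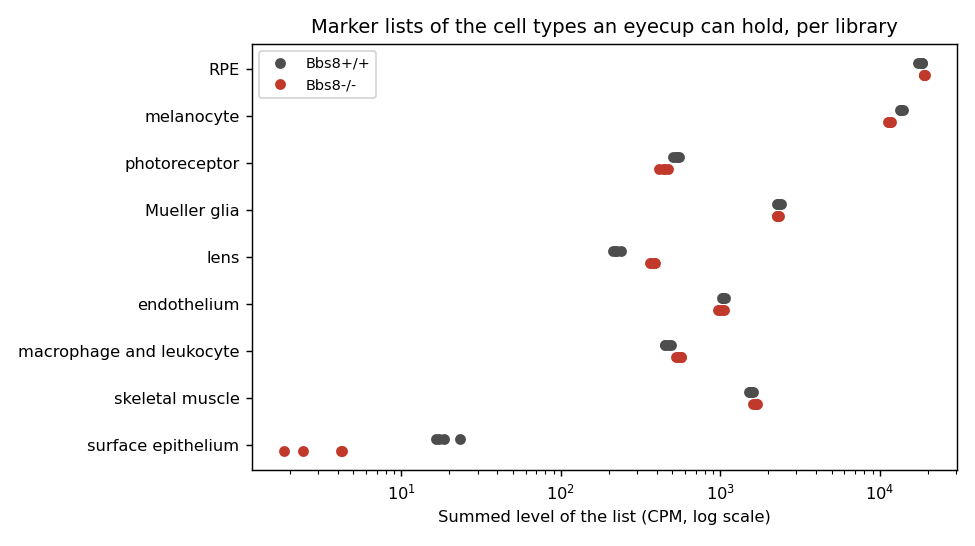
Summed level of each marker list in CPM (log axis), with 1 point per library, Bbs8+/+ in grey and Bbs8-/- in red. The RPE list reaches at least 17400 CPM in all 8 libraries, and the lens list separates the genotypes, at 212 to 237 against 363 to 388 CPM.

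To find out whether the ERM family changed upon loss of Bbs8, each gene was tested across all 13813 genes with the edgeR quasi-likelihood test, and an FDR under 0.05 over all tested genes was called a change. Of the 10 genes, 2 rose in Bbs8-/-, Ezr and Rdx, and 0 fell, while a likelihood ratio test gave 1 and 0, DESeq2 gave 2 and 0, and 1 gene rose in 12 of 16 alternatives in all. Of all tested genes, 2.24% were called, 1.1% higher and 1.14% lower. At an unadjusted p under 0.05 the edgeR test gave 2 of the 10 higher and 2 lower, against 13% of all genes in either direction. The median log2 fold change of the 10 was -0.01, and that of all tested genes was -0.0041, with 5 of the 10 above 0 and 5 below, against 49.5% of all genes above 0. The libraries of the genotypes were without overlap for 2 of the 10, again Ezr and Rdx, both higher in Bbs8-/-. Such a lack of overlap was found for 7.38% of all tested genes, 3.62% higher and 3.76% lower.

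Ezr, which encodes the ERM protein of RPE microvilli, was 538, 537, 538 and 491 CPM in Bbs8+/+ against 646, 637, 669 and 635 CPM in Bbs8-/-. Every Bbs8-/- library was therefore above every Bbs8+/+ library, and replicate 4 of Bbs8+/+ stood below its group. The means were 526 ± 23.5 and 647 ± 15.6 CPM (SD, n = 4 each), an increase of 23.1% or 0.30 on the log2 scale (95% interval 0.19 to 0.41, edgeR FDR 8.32e-05). Without Bbs8+/+ replicate 4 the value was 0.27 (edgeR FDR 0.00176), and over all 15 other fits the FDR lay between 3.51e-06 and 0.00197. Ezr was among the transcripts that the study singled out from its own calls on these libraries, so this change is not independent evidence. For the protein the study reports the opposite direction, with ezrin lower in its proteomic data at each age. It also describes weaker staining of phosphorylated ERM proteins at postnatal day 11, with occasional irregular accumulation. The size was moderate: 66.7% of tested genes had a log2 fold change no larger in absolute value, and Ezr ranked 70 by p-value among all tested genes. Between 1063 and 1457 counts supported it in each library.

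Rdx encodes radixin, the ERM protein best known from the canalicular membrane of hepatocytes and from hair cell stereocilia. It was 471, 465, 484 and 468 CPM in Bbs8+/+ and 534, 537, 536 and 554 CPM in Bbs8-/-. The genotypes again did not overlap, with a narrow spread in each. The increase from 472 ± 8.52 to 540 ± 9.50 CPM (SD, n = 4 each) was 14.5%, or 0.20 on the log2 scale (95% interval 0.08 to 0.31), and passed the threshold closely (edgeR FDR 0.0469). This call was fragile. It was lost in 11 of 15 other fits of the FDR 0.05 call, among them those without Bbs8+/+ replicate 1, 2 or 4 and those without each of the 4 Bbs8-/- libraries. The size hardly moved, from 0.18 to 0.21, and the FDR ranged from 0.0132 to 0.129.

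Msn encodes moesin, the ERM protein that prevails in endothelial cells and leukocytes. It was 357, 324, 379 and 318 CPM in Bbs8+/+ and 359, 365, 345 and 405 CPM in Bbs8-/-. The groups overlapped. The means were 345 ± 28.7 and 368 ± 25.8 CPM (SD, n = 4 each), and the log2 difference of 0.10 did not pass the threshold (95% interval -0.03 to 0.23, edgeR FDR 0.565). It was 0.05 without Bbs8-/- replicate 4 and 0.15 without Bbs8+/+ replicate 3. The interval includes the value of Rdx, and a difference in response between the ERM genes was not tested. Among the lists of cells in which moesin prevails, the endothelial list was level to slightly lower in Bbs8-/- and the macrophage and leukocyte list higher, with the sums given above. Msn is X-linked, and Xist was lower and the Y-linked sum higher in Bbs8-/- without overlap, with the values given above. The part of these differences in the ERM values was not tested. Fewer cells of a type and less RNA per cell cannot be told apart in bulk RNA.

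In sum the 3 ERM genes went from 1340 ± 53.5 to 1560 ± 26.6 CPM (SD, n = 4 each). Within these counts, Ezr took 39.4%, 40.5%, 38.4% and 38.4% in Bbs8+/+ against 42.0%, 41.4%, 43.2% and 39.8% in Bbs8-/-, with means of 39.2% ± 0.998 and 41.6% ± 1.39 (SD, n = 4 each). Replicate 4 of Bbs8-/- overlapped the Bbs8+/+ range. The share of Msn was 24.4% to 27.0% in Bbs8+/+ and 22.3% to 25.4% in Bbs8-/-, and that of Rdx 34.5% to 36.7% and 34.6% to 34.9%. Each of these shares rests on 2533 to 3652 ERM counts, and in replicate 1 of Bbs8+/+ the exact (Clopper-Pearson) 95% interval of the Ezr share was 37.7% to 41.1%. These shares are described without a test.

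**Figure D2:**
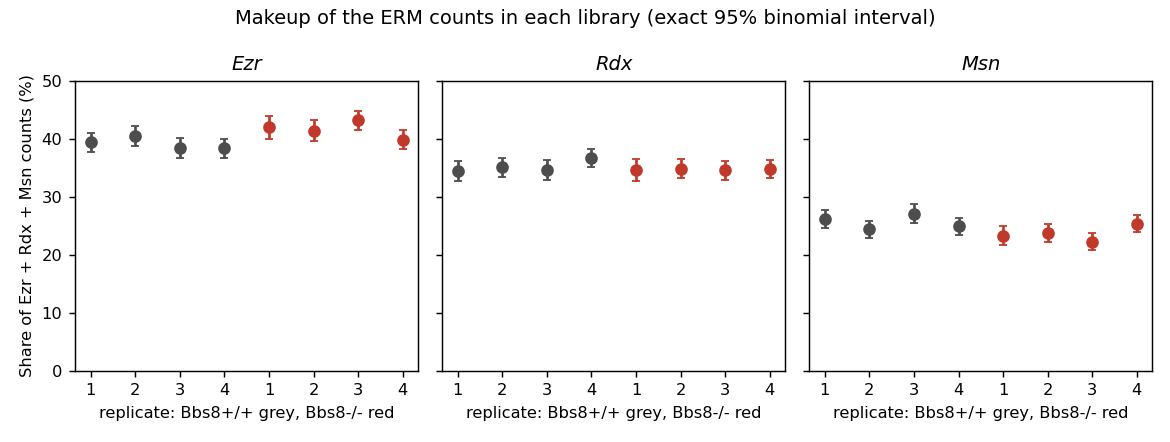
Share of Ezr, Rdx and Msn in their summed counts (%, vertical axis) in each library, with the exact 95% binomial interval, Bbs8+/+ replicates 1 to 4 in grey and Bbs8-/- replicates 1 to 4 in red. Ezr lies between 38.4% and 40.5% in Bbs8+/+ and between 39.8% and 43.2% in Bbs8-/-.

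The lens list, the macrophage and leukocyte list and the RPE list each summed higher in Bbs8-/- without overlap, as did Ezr and Rdx. Sums of the skeletal muscle list were also higher on average, at 1520 to 1610 and 1610 to 1700 CPM, ranges that meet as rounded. Ezrin is also made by lens epithelium, by leukocytes and by Müller glia. The Müller list was carried by Glul, Car14 and Vim, which other eyecup cells also express. Its markers Aqp4, Sox2 and Kcnj10 had at most 7 counts per library. Gfap rose from 2.62 to 14.4 CPM, Dkk3 fell from 198 to 154 CPM, and Slc1a3 was 25.8 and 26.2 CPM on average. Of the 10 Müller genes 6 were higher and 4 lower in Bbs8-/-. The part of these cells in the rise of Ezr and Rdx was not tested. The 3′ end of Ezr overlaps that of Sytl3, on the opposite strand of chromosome 17 (6659093 to 6738044), by 4 bases. Without a stated strand setting, reads from the 2 genes at this junction cannot be told apart. Sytl3 held 5 to 19 counts per library.

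Nf2 encodes merlin, the tumour suppressor that shares the FERM domain with the ERM proteins and acts upstream of the Hippo kinases. Nf2 (chromosome 11, 4765845 to 4849536) was 57.8, 71.3, 59.4 and 62.2 CPM in Bbs8+/+ and 51.0, 67.5, 54.7 and 58.9 CPM in Bbs8-/-. The groups overlapped, and the log2 difference of -0.11 was within the spread between libraries (95% interval -0.37 to 0.15, edgeR FDR 0.805). It was -0.19 without Bbs8-/- replicate 2 and -0.04 without Bbs8+/+ replicate 2.

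The scaffolds NHERF1 and NHERF2, encoded by Slc9a3r1 and Slc9a3r2, bind the FERM domain of active ERM proteins and tether transporters and receptors through PDZ domains. Slc9a3r1 (chromosome 11, 115163341 to 115181181), whose product is the ezrin partner EBP50 of RPE microvilli, was 43.2, 44.5, 32.3 and 43.4 CPM in Bbs8+/+ and 40.7, 53.3, 48.2 and 51.9 CPM in Bbs8-/-. Of the Bbs8-/- libraries 3 lay above every Bbs8+/+ library, and replicate 1 lay among them. The log2 difference of 0.25 did not pass the threshold (95% interval -0.05 to 0.55, edgeR FDR 0.509), and was 0.16 without the low Bbs8+/+ replicate 3. Slc9a3r2 (chromosome 17, 24639286 to 24650327), which is abundant in endothelium, was 77.2, 75.2, 91.7 and 83.2 CPM in Bbs8+/+ and 96.6, 75.3, 72.6 and 77.2 CPM in Bbs8-/-. Its log2 difference was -0.03 (95% interval -0.26 to 0.20, edgeR FDR 0.952), and the interval leaves out changes as large as that of Ezr in either direction.

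Podxl encodes podocalyxin, a sialylated membrane protein of apical surfaces and of vascular endothelium that attaches to ezrin through NHERF scaffolds. Podxl (chromosome 6, 31519488 to 31563981) was 88.0, 88.6, 70.6 and 78.3 CPM in Bbs8+/+ and 69.2, 81.1, 57.9 and 55.7 CPM in Bbs8-/-. It was lower on average in Bbs8-/-, 66.0 ± 11.7 against 81.4 ± 8.59 CPM (SD, n = 4 each), but replicate 2 of Bbs8-/- reached into the Bbs8+/+ range. The log2 difference of -0.31 had a 95% interval, not corrected for the number of genes, from -0.55 to -0.07 and did not pass the threshold (edgeR FDR 0.206). In the other fits the FDR ranged from 0.0748, without Bbs8-/- replicate 2, to 0.519, without Bbs8-/- replicate 4. Of the 12 endothelial markers 7 were lower and 5 higher, with a median log2 fold change of -0.04, and their part in the Podxl value was not tested.

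Eps8, Espn and Myo7a act on the actin core. Eps8 caps and bundles actin filaments and sets the length of microvilli and stereocilia. Eps8 (chromosome 6, 137477245 to 137654876) was 47.5, 46.1, 45.8 and 43.0 CPM in Bbs8+/+ and 46.2, 24.1, 37.2 and 39.3 CPM in Bbs8-/-. The Bbs8+/+ libraries were tightly grouped, 3 of 4 Bbs8-/- libraries lay below them, and replicate 2 of Bbs8-/- was the lowest. The log2 difference of -0.32 (95% interval -0.63 to 0.00, edgeR FDR 0.381) did not pass the threshold, and was -0.16 without that replicate (edgeR FDR 0.78).

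Espin, encoded by Espn, cross-links parallel actin bundles. Espn (chromosome 4, 152120331 to 152152371) had 13, 9, 2 and 2 counts in Bbs8+/+ and 6, 6, 2 and 4 counts in Bbs8-/-. These levels are near the floor, and a change was not detectable at this depth (log2 difference -0.19, 95% interval -1.51 to 1.12, edgeR FDR 0.947). Unconventional myosin VIIa, encoded by Myo7a, carries melanosomes and phagosomes in the RPE and is mutated in Usher syndrome. Myo7a (chromosome 7, 98051060 to 98119524) was 30.6, 33.5, 52.4 and 38.8 CPM in Bbs8+/+ and 43.7, 47.6, 35.4 and 30.9 CPM in Bbs8-/-. The groups overlapped over most of their range, and the log2 difference was 0.02 (95% interval -0.31 to 0.34, edgeR FDR 0.98).

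**Figure D3:**
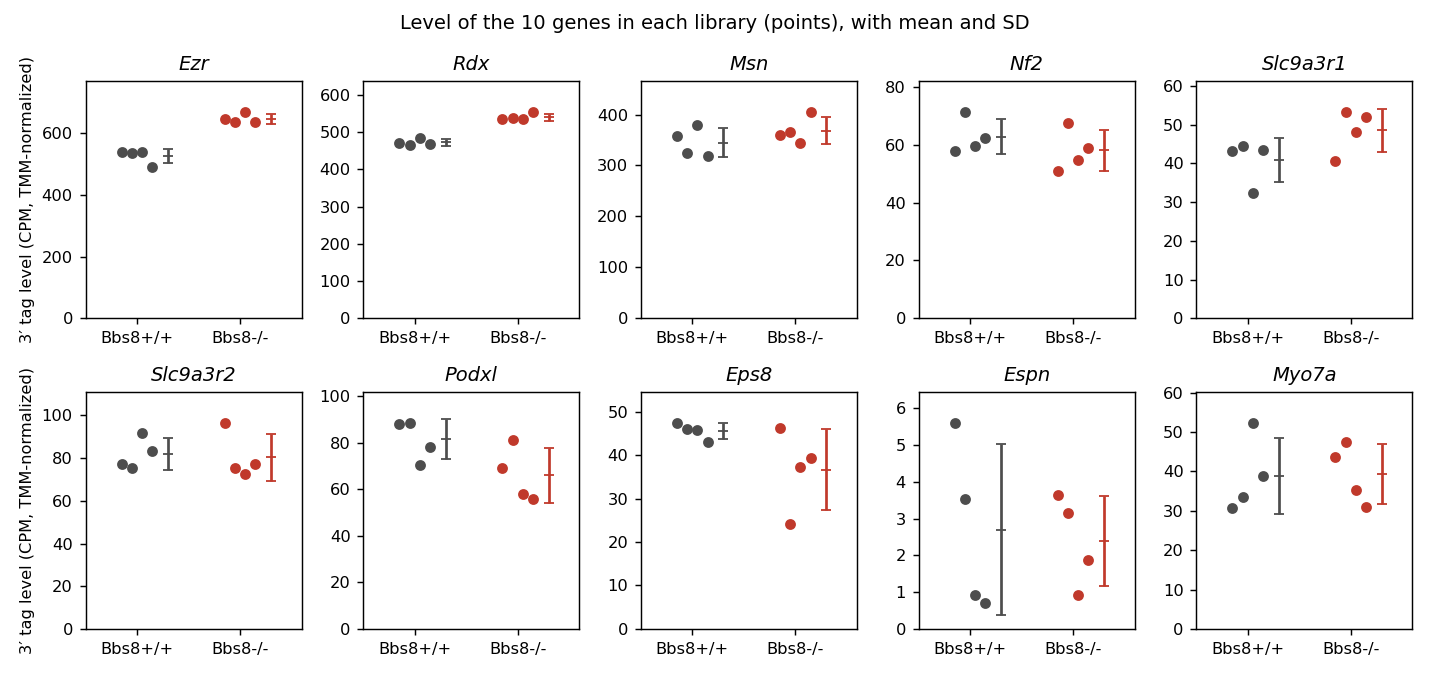
Level of each of the 10 genes in CPM (vertical axes from 0) in the 4 Bbs8+/+ (grey) and 4 Bbs8-/- (red) libraries, with mean and SD beside the points. The points of the genotypes are separate for Ezr (491 to 538 against 635 to 669 CPM) and Rdx (465 to 484 against 534 to 554 CPM) and overlap for the other 8 genes.

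**Figure D4:**
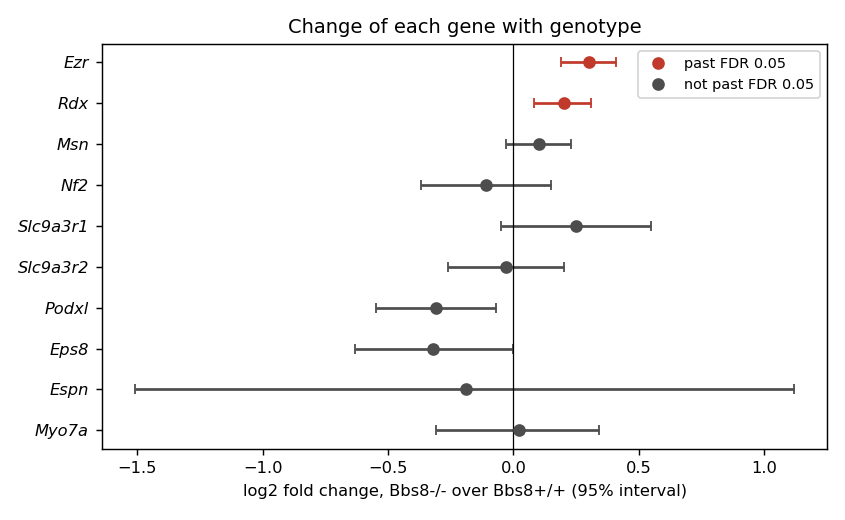
Log2 fold change of each gene, Bbs8-/- over Bbs8+/+, with its 95% interval not corrected for the number of genes. Ezr (0.30) and Rdx (0.20), in red, passed FDR 0.05, and the widest interval, that of Espn, runs from -1.51 to 1.12.

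ERM proteins depend on kinases, on membrane phosphoinositide and on membrane anchors. A list of 27 genes for these functions was examined next, of which 25 were tested. No gene of the list passed the threshold in the edgeR test or with DESeq2, and 3 had an unadjusted p under 0.05 in the edgeR test, 2 higher and 1 lower, where 13% of all tested genes did. The median log2 fold change was -0.02. The 3 genes with the smallest FDR were Pip5k1b, Stk10 and Rlbp1. Pip5k1b, which makes the phosphoinositide that ERM proteins bind, was 194 ± 7.67 CPM in wild type and 221 ± 10.5 CPM in Bbs8-/- eyecups (SD, n = 4 each), without overlap between the genotypes (log2 difference 0.19, edgeR FDR 0.222). Stk10, a kinase of the ERM threonine, was 18.7 ± 5.03 and 12 ± 2.14 CPM (-0.63, edgeR FDR 0.224). Rlbp1 encodes the retinaldehyde-binding protein that attaches to EBP50 in RPE microvilli, and was 780 ± 24.3 and 845 ± 27.6 CPM (0.12, edgeR FDR 0.299). The sodium-proton exchanger gene Slc9a3 reached 1 count at most, and the scaffold gene Pdzk1 had none.

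Of 49 genes for the actin core, its motors and the links between microvilli, 35 were tested, and 1 rose and 1 fell in Bbs8-/-, where 1.1% and 1.14% of all tested genes did. At an unadjusted p under 0.05 there were 7 in the edgeR test, 5 higher and 2 lower, against 13% of all tested genes. Actb, which encodes beta-actin, was 3600, 3510, 3870 and 3480 CPM in Bbs8+/+ and 4150, 4130, 4230 and 4390 CPM in Bbs8-/-. All Bbs8-/- libraries were higher, by 0.23 on the log2 scale (standard error 0.0366, edgeR FDR 2.77e-06). Tmsb4x, which encodes the thymosin that sequesters actin monomers, was 409, 431, 368 and 507 CPM in Bbs8+/+ and 281, 349, 323 and 270 CPM in Bbs8-/-. It fell by 0.49 on the log2 scale without overlap (standard error 0.0697, edgeR FDR 4.6e-08). Tmsb4x is X-linked like Msn, and the sex-linked values above apply to it too. Both genes have many processed copies in the genome, and only uniquely aligned reads were counted, so their levels are uncertain. The next smallest FDR of the list was that of Myo5a, the myosin that holds melanosomes at the periphery, with 340 ± 20.3 and 294 ± 24.9 CPM (log2 difference -0.21, edgeR FDR 0.083). Without Bbs8-/- replicate 2 the edgeR test called 2 genes of the list lower. The median of the list was 0.03.

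Some genes of this list were not detected at this depth. Among the 14 untested genes of this list, 9 had no count in any library: Espnl, Eps8l3, Myo7b, Myo15, Ush1g, Cdhr2, Cdhr5, Anks4b and Prom2. Of these, Cdhr2, Cdhr5, Myo7b and Anks4b encode parts of the complex that links the tips of intestinal microvilli. The other 5, Vil1, Fscn2, Myo1a, Myo3a and Myo3b, had at most 3 counts in any library. With a floor of 1.04 to 1.83 CPM, lower expression would have been missed.

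Merlin acts through the Hippo pathway, in which Stk3, Stk4 and Lats kinases restrain Yap1. All 24 genes listed for it were tested, and 0 passed the threshold with edgeR or DESeq2. At an unadjusted p under 0.05 there were 7 in the edgeR test, 2 higher and 5 lower, against 13% of all tested genes, and the median log2 fold change was 0.00. Those with the smallest FDR were Ptpn14, a phosphatase that binds Yap1, at 72.6 ± 5.2 and 57.9 ± 6.56 CPM in Bbs8+/+ and Bbs8-/- (SD, n = 4 each, log2 difference -0.33, edgeR FDR 0.196), Yap1 itself at 85.3 ± 10.8 and 70.0 ± 5.79 CPM (-0.29, edgeR FDR 0.223), and Stk4 at 86.6 ± 11 and 103 ± 13 CPM (0.25, edgeR FDR 0.268). The genotypes overlapped for Yap1 and Stk4 but not for Ptpn14.

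**Figure D5:**
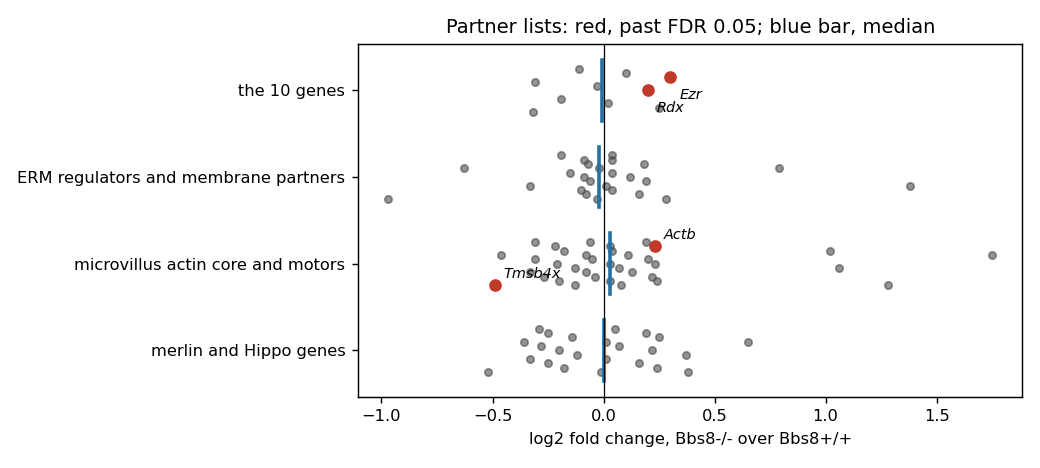
Log2 fold change (horizontal axis) of the 10 genes and of each tested gene in the 3 partner lists, with 1 point per gene and the median as a blue bar. Red points passed FDR 0.05: Ezr and Rdx among the 10 genes, and Actb (0.23) and Tmsb4x (-0.49) in the actin list, while the 4 medians lie between -0.02 and 0.03.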

How the data were processed

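RNA of P11 RPE eyecups was read with the QuantSeq 3′ mRNA kit. The deposited values are unnormalized read counts for each gene, for which the authors trimmed with BBDuk, aligned with STAR to mm10 and counted with htseq-count. The counting strand was not stated, multi-mapped reads stood on a line of their own and entered no gene, and the study's filter on them was not applied. Reads outside genes and ambiguous reads (0.309% to 0.323%) were left out. Reads outside genes made up 42.1% to 43.4% of uniquely aligned reads in Bbs8+/+ and 44.1% to 44.4% in Bbs8-/-, without overlap. The part of this difference in the results was not tested.

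Symbols and positions were taken from GENCODE M21 on mm10 (31011 of 31053 identifiers matched), and promoter windows from RefSeq, which held windows for 8 of the 10 genes and none for Podxl and Eps8. Genes reaching 1 CPM in 4 or more libraries were tested for genotype by quasi-likelihood in edgeR 4.0.16 (R 4.3.3) after TMM normalization, two-sided, with Benjamini-Hochberg adjustment over all tested genes and a threshold of FDR 0.05. Standard errors were the absolute log2 fold change over the square root of the F statistic. The fits were repeated with total counts or RLE size factors, no filter or filterByExpr, a likelihood ratio test, DESeq2 1.42.0, the replicate number as a block, FDR 0.01, and leaving out each library.

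Named were the 10 genes, Ttc8, list genes past FDR 0.05 or else those with the smallest FDR up to 3 per list, and the 5 genes with at least 10 CPM most like Ezr. Genes at or near 0 counts, the gene overlapping Ezr, sex-linked genes and some cell type markers were named in addition after their values were seen. The members and lists were chosen with earlier results of these data known. No 2 files held identical values, and libraries of a genotype differed by more than Poisson noise (median chi-square index 1.85 to 2.79, where 1 is Poisson noise).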

Additional observations from a re-analysis of the deposited data

Results flagged for a closer look

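A library that stood far from the other 3 of its genotype, relative to the range of the group, was found in 3 of 46 groups examined, where chance gives about 2.3. Ezr was 491 CPM in Bbs8+/+ replicate 4 against 537 to 538 CPM in the others. Rdx was 554 CPM in Bbs8-/- replicate 4 against 534 to 537 CPM. Slc9a3r1 was 32.3 CPM in Bbs8+/+ replicate 3 against 43.2 to 44.5 CPM.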

How the results depend on the processing

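Ezr kept its direction and its call in all 15 other fits, with log2 fold changes from 0.27 to 0.31. Rdx lost its call, which left 1 of the 10 genes higher, with total counts only (0.19, FDR 0.0684), no filter on low counts (0.19, FDR 0.0755), the likelihood ratio test (0.20, FDR 0.112) and the replicate block (0.19, FDR 0.0825), and 1 gene was higher at FDR 0.01. With 1 library left out, 1 to 2 of the 10 genes were higher, the log2 fold change of Rdx ranged from 0.18 to 0.21, and 1 to 2 genes of the actin list were lower. Same-numbered libraries of the genotypes deviated with correlations from -0.0287 to 0.0194 over 9042 genes, so that the replicate block pairs no libraries by the data. Near 0 and never called, Slc9a3r2 ranged from -0.12 to 0.025, Espn from -0.54 to 0.42 and Myo7a from -0.086 to 0.18 with 1 library left out, and changed sign. Their fits with the opposite sign were those without Bbs8+/+ replicate 3 (Slc9a3r2, 0.025), Bbs8-/- replicate 3 (Slc9a3r2, 0.016, and Espn, 0.088), Bbs8+/+ replicate 1 (Espn, 0.42, and Myo7a, -0.074), Bbs8+/+ replicate 2 (Myo7a, -0.044), Bbs8-/- replicate 1 (Myo7a, -0.029) and Bbs8-/- replicate 2 (Myo7a, -0.086). Espn gave no value with filterByExpr. Over all genes, 152 were higher and 157 lower, against 92 and 81 at FDR 0.01, 104 lower with DESeq2, and 114 to 172 higher and 105 to 150 lower with 1 library left out. The cause of these shifts was not tested. Depth limits Espn and the genes listed near 0 counts.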

Other observations

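The genes whose level followed that of Ezr most closely were sought among 9041 other tested genes with a mean of at least 10 CPM. By Pearson correlation of log2 CPM over the 8 libraries, which share the genotype difference, they were Trpm3 (r = 0.978), Ccdc112 (0.966), Mllt10 (0.965), Glo1 (0.963) and Akap13 (0.962). Trpm3, a cation channel of the RPE, went from 351 ± 19.1 to 408 ± 9.28 CPM in Bbs8-/- (SD, n = 4 each, log2 fold change 0.22). Akap13, an anchoring protein that activates RhoA, was 273 ± 16.5 and 329 ± 9.19 CPM (log2 fold change 0.27), and Glo1, the glyoxalase that detoxifies methylglyoxal, 98.9 ± 5.46 and 161 ± 4.22 CPM (0.71). The log2 fold changes of Ccdc112 and Mllt10, 0.44 and 0.17, did not pass the threshold (edgeR FDR 0.425 and 0.486). Those of Trpm3, Akap13 and Glo1 did (edgeR FDR 0.0393, 0.00904 and 2.51e-09). After the genotype means were taken off, the correlation with Ezr was 0.92 for Trpm3, 0.804 for Mllt10, 0.721 for Akap13, 0.694 for Ccdc112 and 0.386 for Glo1. The genes were picked for a likeness that includes both the genotype difference and the deviations within genotypes. Both sets of correlations, and the fold changes, therefore describe picked genes, and no support is drawn from them.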
